A study of Caenorhabditis elegans with 36 samples.

Results

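The *Mutator* complex genes are 7 protein-coding genes of *C. elegans* whose products work together in RNA interference (RNAi): *mut-16* (B0379.3), *mut-2* (K04F10.6), *mut-7* (ZK1098.8), *mut-14* (C14C11.6), *mut-15* (T01C3.8), *rde-2* (F21C3.4) and *rde-8* (ZC477.5). They were taken by gene name and not by any measured value, and they are 7 of the 45904 gene names in the count tables. All 7 passed the filter on low counts in both assays, in which 14623 genes were tested by mRNA-seq and 16025 by small RNA-seq. The study asked how RNAi pathways act in the germline of worms under heat stress. It compared whole Day 1 adults of the wild-type strain N2 with adults carrying *mut-16(pk710)*, which the study treats as a null allele (strain NL1810), at 20°C and at 25°C, with 3 biological replicates per group and assay. Each sample pooled 8000 animals that had been synchronized as L1 larvae and grown on enriched peptone plates. Animals at 20°C were harvested about 68 h after plating and animals at 25°C about 48 h after plating, so heat and time of harvest cannot be told apart. mRNA was selected by its poly(A) tail, and small RNAs were selected by size.

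In the WBcel235 annotation *mut-16* lies at chrI:10080159-10085765 on the plus strand and *mut-2* at chrI:6356614-6358411 on the minus strand. *rde-2* is on the same chromosome, at chrI:7280466-7282924 on the minus strand. *mut-7* lies at chrIII:9539031-9542380 and *rde-8* at chrIV:7101379-7103261, both on the minus strand. *mut-14* lies at chrV:5658713-5660704 on the minus strand and *mut-15* at chrV:15002543-15005067 on the plus strand.

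As background, the *Mutator* proteins gather in foci beside P granules at the nuclear periphery of germ cells. MUT-16 is the scaffold that recruits the others. There, RNA-dependent RNA polymerases (RdRPs) copy target mRNAs into antisense small RNAs, which Argonaute proteins carry to silence transposons, pseudogenes and other targets. MUT-2 (also RDE-3) is a nucleotidyltransferase that adds tails of alternating U and G to targeted RNAs, MUT-7 is related to 3′–5′ exonucleases and binds RDE-2, MUT-14 is a DEAD-box RNA helicase, RDE-8 is an endoribonuclease that cuts targeted RNAs, and MUT-15 has no known domain. Because the complex makes small RNAs against mRNAs, small RNA reads on a *Mutator* gene are reads that match its transcript, and are not a measure of the protein it encodes.

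The *mut-14* gene has a near copy, and the pair is shown because reads from either can match both. ZC317.1 is annotated as a pseudogene at chrV:5471833-5473146 on the plus strand, 185566 bases from *mut-14*. It was singled out after its values were seen. Over 1043 aligned bases the transcripts differed at 12 positions and 1 gap, an identity of 98.8%, and the longest run without a difference was 299 bases. The following 120 bases, 5′ to 3′, lie in a coding exon of *mut-14* at chrV:5660169-5660288 (minus strand) and in ZC317.1 at chrV:5471836-5471955 (plus strand), and capitals mark the 4 positions at which they differ.
mut-14: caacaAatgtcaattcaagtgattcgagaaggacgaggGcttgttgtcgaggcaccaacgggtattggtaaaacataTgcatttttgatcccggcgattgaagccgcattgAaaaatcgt
ZC317.1: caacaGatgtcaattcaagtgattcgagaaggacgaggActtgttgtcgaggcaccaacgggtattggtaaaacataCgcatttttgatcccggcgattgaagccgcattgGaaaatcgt
Of all runs of 18 bases in the *mut-14* transcript, 47.1% also occurred in another gene, and 808 of those 815 were in ZC317.1. Of runs of 75 bases, the length of an mRNA-seq read, 25.1% were shared, all with ZC317.1. The other 6 genes shared between 0.573% and 3.78% of their 18-base runs with any other gene and 0 of their 75-base runs, so *mut-14* is the member whose reads are most open to division between genes.

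The 150 bases before the annotated start of 4 of the genes are shown because the members moved together in one condition. The letters TTTCAG, which resemble the site at which worm RNAs are joined to an exon or a spliced leader, were searched on both strands, and they are in capitals in the sequences, which run 5′ to 3′ along the strand of the gene. The windows are chrIII:9542381-9542530 (minus) for *mut-7*, chrV:5660705-5660854 (minus) for *mut-14*, chrV:15002393-15002542 (plus) for *mut-15* and chrIV:7103262-7103411 (minus) for *rde-8*.
mut-7: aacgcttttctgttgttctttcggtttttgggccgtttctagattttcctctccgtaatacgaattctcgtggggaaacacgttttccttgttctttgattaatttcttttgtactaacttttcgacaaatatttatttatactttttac
mut-14: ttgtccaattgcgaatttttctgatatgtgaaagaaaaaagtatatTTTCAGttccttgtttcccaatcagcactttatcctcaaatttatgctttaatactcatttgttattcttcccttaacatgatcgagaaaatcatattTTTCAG
mut-15: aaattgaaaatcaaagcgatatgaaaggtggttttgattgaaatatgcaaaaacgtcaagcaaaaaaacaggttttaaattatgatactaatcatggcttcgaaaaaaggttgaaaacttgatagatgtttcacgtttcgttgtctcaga
rde-8: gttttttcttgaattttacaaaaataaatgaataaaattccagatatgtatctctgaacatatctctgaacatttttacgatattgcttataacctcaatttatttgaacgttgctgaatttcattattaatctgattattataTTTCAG
The letters occurred on the strand of the gene at 2 places before *mut-14* and at 1 place before *rde-8*, in both cases with one of them ending directly at the start. None of the other 5 genes had them on either strand. The window of *rde-2* lies partly in the coding gene *pfd-6*, which is 39 bases away on the same strand. Among 19984 coding genes, 23.5% had the letters on their own strand in a window of this length, 9.88% on the other strand, and 13.1% within 3 bases of the start. The windows of the 7 genes held 23.3% to 35.3% G and C, against a median of 32.7% over all coding genes.

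Library totals were 15432009 to 34195602 reads on genes for mRNA, and 4760502 to 19060841 for small RNAs. Levels below are RPM, the reads on a gene scaled to the reads on all genes of its library, and log2 fold changes and their standard errors (SE) come from edgeR's quasi-likelihood test with TMM scaling and all 12 libraries of an assay in one fit. A gene was called higher or lower at a Benjamini-Hochberg adjusted p under 0.05 over all genes tested. Scaling moved the median of all genes in some comparisons. With the library total as the scale in place of TMM, the mRNA median of heat in *mut-16* mutants went from 0.15 to 0.46 on the log2 scale. That of the genotypes at 25°C went from 0.16 to 0.37, and that of the heat difference between genotypes from -0.10 to 0.19. In small RNA-seq the median of the genotypes at 20°C went from -0.45 to -0.56. Some values are for this reason also given after subtracting that median. Markers of the tissues of a whole animal were all above 0 in mRNA-seq, except 1 sperm marker in wild-type at 20°C.

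The *mut-16* transcript, the one that carries the mutation, was measured first. Its mRNA level in the 3 wild-type libraries at 20°C was 127, 117 and 119 RPM, and in wild-type at 25°C it was 127, 109 and 105 RPM. The mutant libraries held 64.3, 51.7 and 40.8 RPM at 20°C and 49.4, 40.6 and 42.3 RPM at 25°C. Every mutant library was below every wild-type library, and reads on the gene remained in all 6 mutant libraries. The mean level in mutants was 43.4% of wild-type at 20°C and 38.9% at 25°C. The log2 fold change was -1.12 (SE 0.144, adjusted p = 2.33e-05, edgeR) at 20°C and -1.57 (SE 0.146, adjusted p = 4.69e-07) at 25°C.

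**Figure D1:**
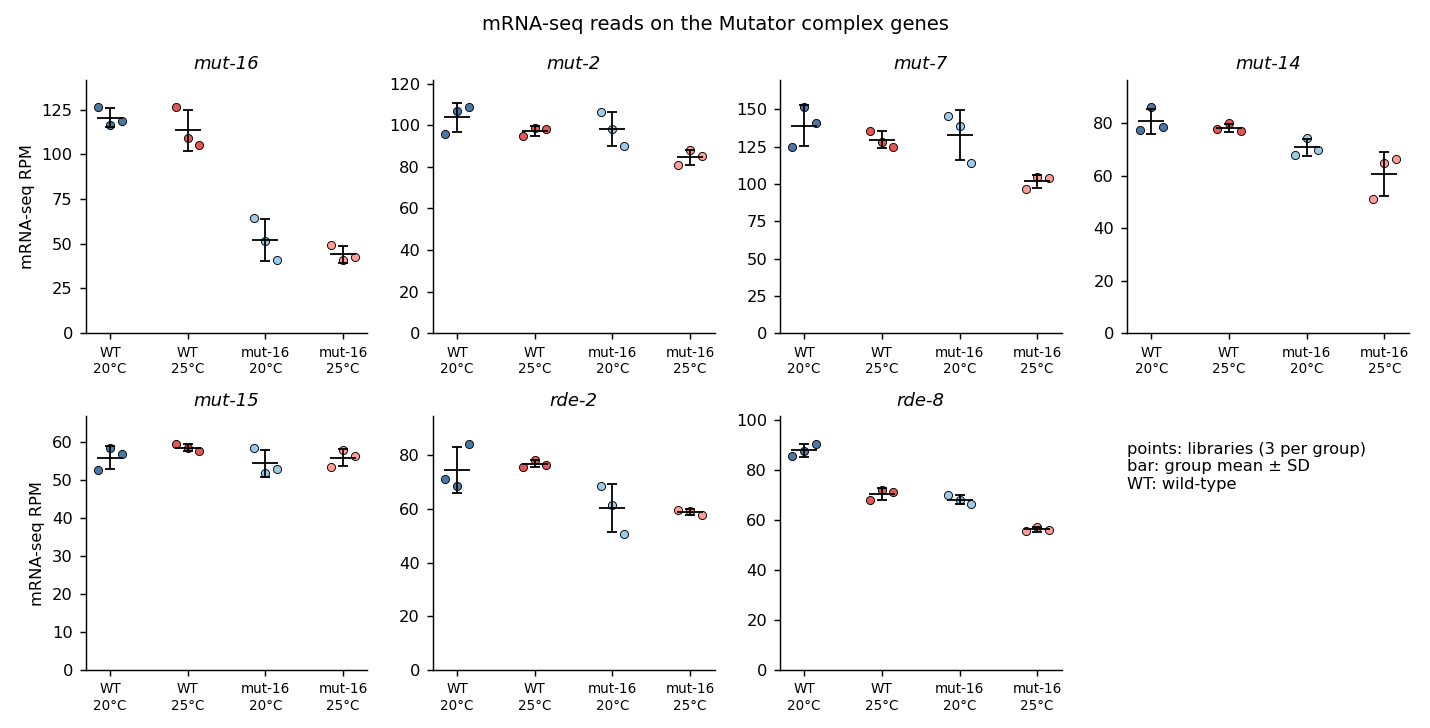
mRNA-seq reads scaled to the library (RPM, vertical axes from 0) on each *Mutator* complex gene, with 1 point per library, 3 libraries per group, and bars for the group mean ± SD. *mut-16* separates by genotype at both temperatures, *rde-8* is highest in wild-type at 20°C, and *mut-15* lies between 51.9 and 59.5 RPM in all libraries.

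Levels of the 7 genes in wild-type at 20°C were compared per kilobase of exon. *rde-8*, the endoribonuclease gene, had the highest mRNA level, 78.9 ± 2.31 RPM per kb (SD, n = 3), followed by *mut-2* with 66.7 ± 4.56 RPM per kb. *mut-7* with 46.6 ± 4.57 and *mut-14* with 46.1 ± 2.78 RPM per kb overlapped, as did *rde-2* with 37.8 ± 4.32 and *mut-16* with 35.3 ± 1.55 RPM per kb. The gene of the scaffold was thus near the lower end, and *mut-15* was the lowest with 27.2 ± 1.46 RPM per kb.

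The order was another one in small RNA reads. *mut-14* held 307 ± 12.3 small RNA RPM per kb and *mut-7* 160 ± 3.11, then *mut-15* 95.1 ± 3.33, *rde-2* 74.3 ± 2.95 and *mut-16* 65.8 ± 1.56. *rde-8* with 36.2 ± 1.24 and *mut-2* with 29.7 ± 2.76 small RNA RPM per kb were the lowest, although their mRNA levels per kb were the highest.

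Heat in wild-type animals was the first comparison, and it touched 1 of the genes. Only *rde-8* mRNA fell among the 7, where 9.78% of all genes tested were called lower and 32.4% were called in either direction. Its level was 85.6, 87.5 and 90.7 RPM at 20°C and 67.9, 72.1 and 71.3 RPM at 25°C. The groups did not overlap, and the log2 fold change was -0.34 (SE 0.0716, adjusted p = 0.00197, edgeR). For the other 6 genes the log2 fold changes lay between -0.12 for *mut-7* and 0.05 for *mut-15*, with adjusted p of 0.347 or more. In bulk RNA of whole animals, fewer cells of a type and less RNA per cell cannot be told apart.

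Loss of *mut-16* at 20°C likewise left most of the other mRNAs without a call. Apart from *mut-16* itself, *rde-8* was lower, so 2 of 7 genes were called, while 11.2% of all genes tested were called lower and 37.1% in either direction. The mutant libraries at 20°C held 70.0, 68.2 and 66.4 RPM of *rde-8* mRNA, all below wild-type, with a log2 fold change of -0.28 (SE 0.0717, adjusted p = 0.00606, edgeR). *rde-2*, whose product binds MUT-7, had -0.22 (adjusted p = 0.12). It was called lower with DESeq2 (-0.30, adjusted p = 0.0302), with the library total as the scale (-0.31, adjusted p = 0.0254), without a filter on low counts (-0.34, adjusted p = 0.0142) and without replicate 1 of mutants at 20°C (-0.34, adjusted p = 0.0207). *mut-2*, *mut-7*, *mut-14* and *mut-15* lay between -0.10 and 0.05.

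In heated *mut-16* mutants, all 7 mRNAs were lower than in *mut-16* mutants at 20°C, with TMM scaling. The background was wide: 32.3% of all genes tested were called lower in this comparison and 72.6% in either direction. *mut-7* mRNA, for the exonuclease-like protein, was 146, 139 and 114 RPM in mutants at 20°C and 96.7, 105 and 104 RPM at 25°C. The 3 heated libraries lay below the 3 others, with a log2 fold change of -0.70 (SE 0.104, adjusted p = 3.52e-05, edgeR) or -0.84 after subtracting the median of all genes. *rde-8* went from the values above to 55.5, 57.2 and 56.0 RPM, again without overlap, a log2 fold change of -0.59 (SE 0.0722, adjusted p = 6.11e-06).

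The nucleotidyltransferase gene *mut-2* held 107, 98.1 and 90.3 RPM in mutants at 20°C and 80.9, 88.0 and 85.3 RPM at 25°C (log2 fold change -0.53, SE 0.0867, adjusted p = 8.12e-05). *mut-14*, the helicase gene, held 67.9, 74.4 and 69.8 RPM and then 50.96, 64.7 and 66.5 RPM (-0.53, SE 0.0921, adjusted p = 0.000128). Neither gene's groups overlapped. The remaining genes depended on the scale, and some also on the filter. *mut-16* fell by 0.56 on the log2 scale (adjusted p = 0.00316), *rde-2* by 0.35 (adjusted p = 0.0096) and *mut-15* by 0.28 (adjusted p = 0.00779), but their RPM values overlapped between the temperatures, and with the library total as the scale *mut-16* had -0.25 (adjusted p = 0.117), *mut-14* -0.22 (adjusted p = 0.0557), *rde-2* -0.03 and *mut-15* turned to 0.039. In *mut-15*, the levels were 58.4, 51.9 and 52.8 RPM at 20°C and 53.3, 57.8 and 56.1 RPM at 25°C. TMM factors were 1.11 to 1.15 in the heated mutants and 0.898 to 1.007 in the other libraries. With like RPM in both groups, *mut-15* was called lower in 19 of 21 settings, but not with the library total as the scale. Nor was it called with at least 10 counts in every library (-0.07, adjusted p = 0.422, edgeR). That filter gave -0.14 for *rde-2* (adjusted p = 0.245). Without replicate 1 of mutants at 20°C, *rde-2* had -0.24 (adjusted p = 0.0502). On the TMM scale the groups of all 7 genes were free of overlap, as were 32.3% of all genes in this direction. On the RPM scale those of 4 genes were, but the share of all genes was not computed on that scale.

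The genotypes at 25°C gave the same set of calls: all 7 mRNAs were lower in *mut-16* mutants than in wild-type, against 32.6% of all genes called lower and 73.7% in either direction. *mut-7* held 136, 128 and 125 RPM in heated wild-type, above each heated mutant library, and the log2 fold change was -0.56 (SE 0.104, adjusted p = 0.000215, edgeR). *rde-2* held 75.8, 78.4 and 76.5 RPM in wild-type and 59.8, 59.2 and 57.6 RPM in mutants (-0.59, SE 0.108, adjusted p = 0.000182). *mut-14*, *rde-8*, *mut-2* and *mut-15* had -0.57, -0.53, -0.41 and -0.28. On the TMM scale none of the 7 overlapped, where 35.7% of all genes were lower without overlap. On the RPM scale *mut-15* alone overlapped, but the share of all genes was not computed on that scale. The *mut-15* log2 fold change was -0.07 (adjusted p = 0.455) with the library total as the scale. It was -0.10 (adjusted p = 0.27) with at least 10 counts in every library.

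**Figure D2:**
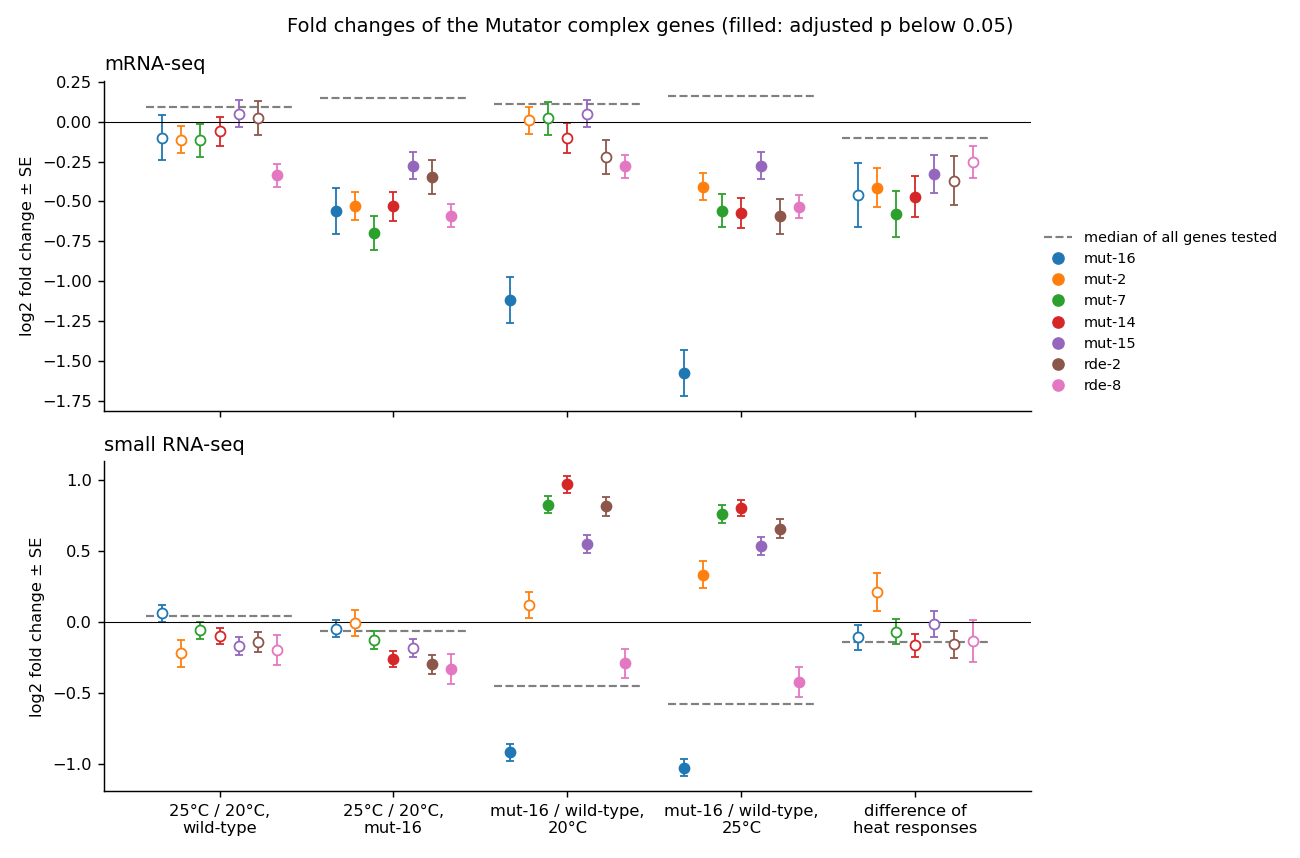
Log2 fold changes (vertical axes) ± SE of the 7 genes in mRNA-seq (top) and small RNA-seq (bottom) for the 5 comparisons on the horizontal axis. Filled points had an adjusted p under 0.05 and dashed lines are the median of all genes tested. In mRNA-seq all 7 genes lie below 0 and below the median in the heated mutants with TMM scaling, where *mut-15* turns to 0.039 against mutants at 20°C with the library total as the scale. In small RNA-seq *mut-14*, *mut-7*, *rde-2* and *mut-15* lie above 0 in mutants at both temperatures.

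Whether heat acted differently in the genotypes was tested by an interaction term. The log2 fold change of heat was lower in *mut-16* mutants than in wild-type for 4 mRNAs, with 21.4% of all genes called lower and 31.1% in either direction. The differences were -0.58 for *mut-7* (SE 0.147, adjusted p = 0.00909, edgeR), -0.47 for *mut-14* (SE 0.13, adjusted p = 0.0141), -0.42 for *mut-2* (SE 0.122, adjusted p = 0.0191) and -0.33 for *mut-15* (SE 0.118, adjusted p = 0.0463). The *mut-15* call held in 6 of 20 settings, the main one included, and was lost with DESeq2 (-0.28, adjusted p = 0.0705), without a filter on low counts (-0.26, adjusted p = 0.139) and without any one of 9 libraries: replicate 1 of wild-type at 20°C, replicates 1 and 3 of mutants at 20°C, and each of the 6 libraries at 25°C. The *mut-14* call was lost without replicate 3 of mutants at 20°C (-0.35, adjusted p = 0.0662, edgeR). *mut-16* with -0.46 (adjusted p = 0.0948), *rde-2* with -0.37 (adjusted p = 0.0749) and *rde-8* with -0.25 (adjusted p = 0.0681) were not called. With the library total as the scale, or with at least 10 counts required in every library, 0 of the 7 were called, although 7 had an unadjusted p under 0.05 on the main scale.

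Markers of germ cells and control genes moved in the same libraries. The summed mRNA level of 25 germline marker genes was 4520 to 5003 RPM in wild-type at 20°C and 5164 to 5283 after heat. It was 4496 to 5034 in mutants at 20°C and 3747 to 3903 in mutants at 25°C. In the heated mutants 25 of 25 of these markers were lower than in heated wild-type, and 23 of 25 were lower than in mutants at 20°C, as were 14 of 14 oocyte markers in both comparisons. The shares of all genes tested that were called lower were 32.6% against heated wild-type and 32.3% against mutants at 20°C. Of the 7 control genes taken as steady, 6 were lower in heated mutants than in mutants at 20°C (median log2 fold change -0.52, that of the 7 *Mutator* genes being -0.53), and 5 were lower than in heated wild-type (median -0.34). The part of any of these lists in the result was not tested. The mean sum of 10 muscle markers was 3498 RPM in mutants at 20°C and 5072 in mutants at 25°C, and that of 10 neuron markers 206 and 337 RPM. The epidermis sum was 899 and 1909 RPM and the sperm sum 118 and 157 RPM. For 10 intestine markers the mean sum was lower at 25°C, 48569 and 35737 RPM. The intestine sums of single libraries overlapped, at 42520 to 53443 RPM and 29691 to 47292 RPM.

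The 6 genes other than *mut-16* were also set against the germline sum of the same library. Their summed mRNA was 0.113 of the germline sum in wild-type at 20°C and 0.0982 after heat, 0.102 in mutants at 20°C and 0.110 in mutants at 25°C. Between the temperatures in mutants the ratio differed by 0.11 on the log2 scale (exact permutation test, two-sided, p = 0.3), and between the genotypes at 25°C by 0.16 (p = 0.1, exact permutation test). Heat in wild-type gave -0.20 and the genotypes at 20°C -0.15, each with p = 0.1 by the exact permutation test, which is the smallest p that 3 libraries against 3 can give. The mean ratio in heated mutants was not below that of mutants at 20°C or of heated wild-type, and the cause was not tested. Single genes differed. From 20°C to 25°C in mutants, *mut-7* went from 2.78% to 2.67% of the germline sum and *mut-15* from 1.14% to 1.46%. The means of *mut-2*, *mut-14*, *rde-2* and *rde-8* were also higher at 25°C.

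**Figure D3:**
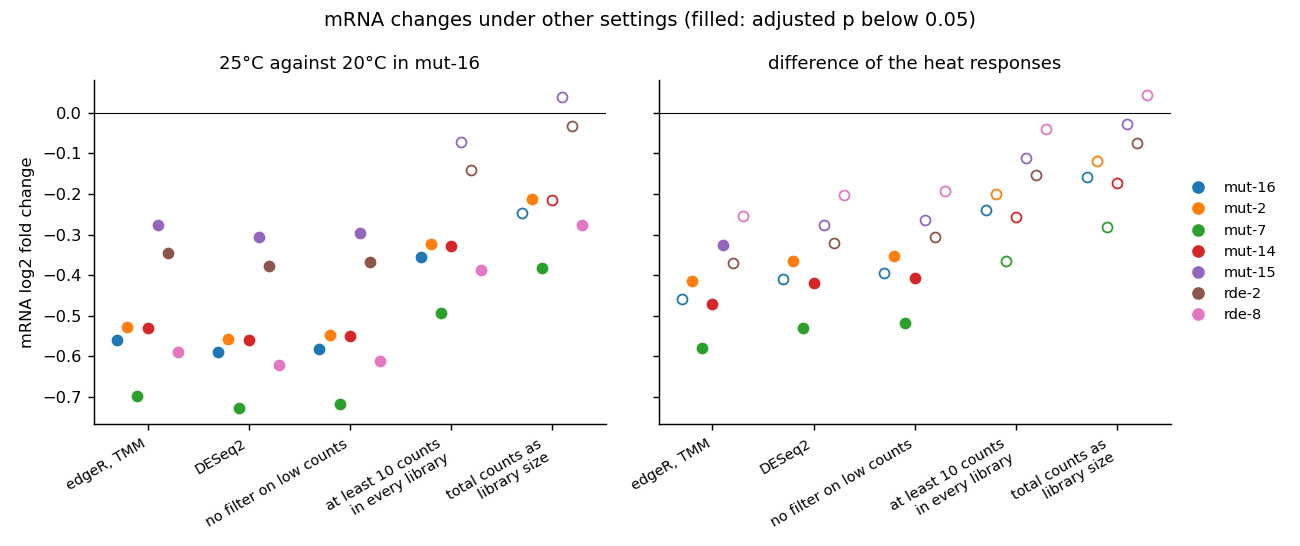
mRNA log2 fold changes (vertical axis) of the 7 genes for heat in *mut-16* mutants (left) and for the difference of the heat responses (right) under 5 settings of test, filter and scale. Filled points had an adjusted p under 0.05. With the library total as the scale *mut-15* moves from -0.28 to 0.039 on the left, and none of the 7 genes is called on the right.

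Small RNA reads on the genes gave another pattern. In *mut-16* mutants at 20°C, 4 genes had more small RNA reads than in wild-type and 2 had fewer, while 33.6% of all genes tested were called higher, 46.8% lower and 80.4% in either direction. *mut-14* held 523, 525 and 561 small RNA RPM in wild-type and 991, 982 and 965 in mutants. The groups were far apart, with a log2 fold change of 0.97 (SE 0.0569, adjusted p = 6.05e-10, edgeR). *mut-7* held 482, 466 and 482 RPM in wild-type and 816, 776 and 773 RPM in mutants (0.83, SE 0.0623, adjusted p = 9.93e-09). *rde-2* and *mut-15* rose by 0.81 (adjusted p = 2.79e-08) and 0.55 (adjusted p = 1.29e-06), also without overlap. With at least 10 counts in every library *mut-15* had 0.10 and was not called (adjusted p = 0.0707). The median of all genes was -0.45, so relative to it these rises were 1.42, 1.28, 1.27 and 1.00 in the same order of genes. Before this subtraction, each rise was below the median of 7 control genes taken as steady, which was 1.10. The median of all genes was itself -0.01 with at least 10 counts in every library and -0.27 with DESeq2. The values relative to it therefore depend on these settings.

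Small RNA reads on *mut-16* itself fell. They were 227, 219 and 228 RPM in wild-type at 20°C and 113, 107 and 112 RPM in mutants, every mutant library lying below wild-type (-0.92, SE 0.0602, adjusted p = 2.11e-09, edgeR). *rde-8* held 39.6, 41.9 and 39.5 RPM in wild-type and 31.7, 28.4 and 31.95 RPM in mutants (-0.29, SE 0.102, adjusted p = 0.0175). This *rde-8* call was lost with DESeq2 (-0.10, adjusted p = 0.382), and after subtracting the median of all genes the value was 0.16. *mut-2* held 51.3, 43.4 and 44.3 RPM in wild-type and 49.9, 44.7 and 45.6 RPM in mutants, which overlapped, and it was not called in edgeR with TMM scaling (0.12, adjusted p = 0.246). DESeq2 gave *mut-2* 0.31 (adjusted p = 0.00283), and a minimum of 10 counts in every library gave -0.33 (adjusted p = 0.0023), so its direction depends on the scale.

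**Figure D4:**
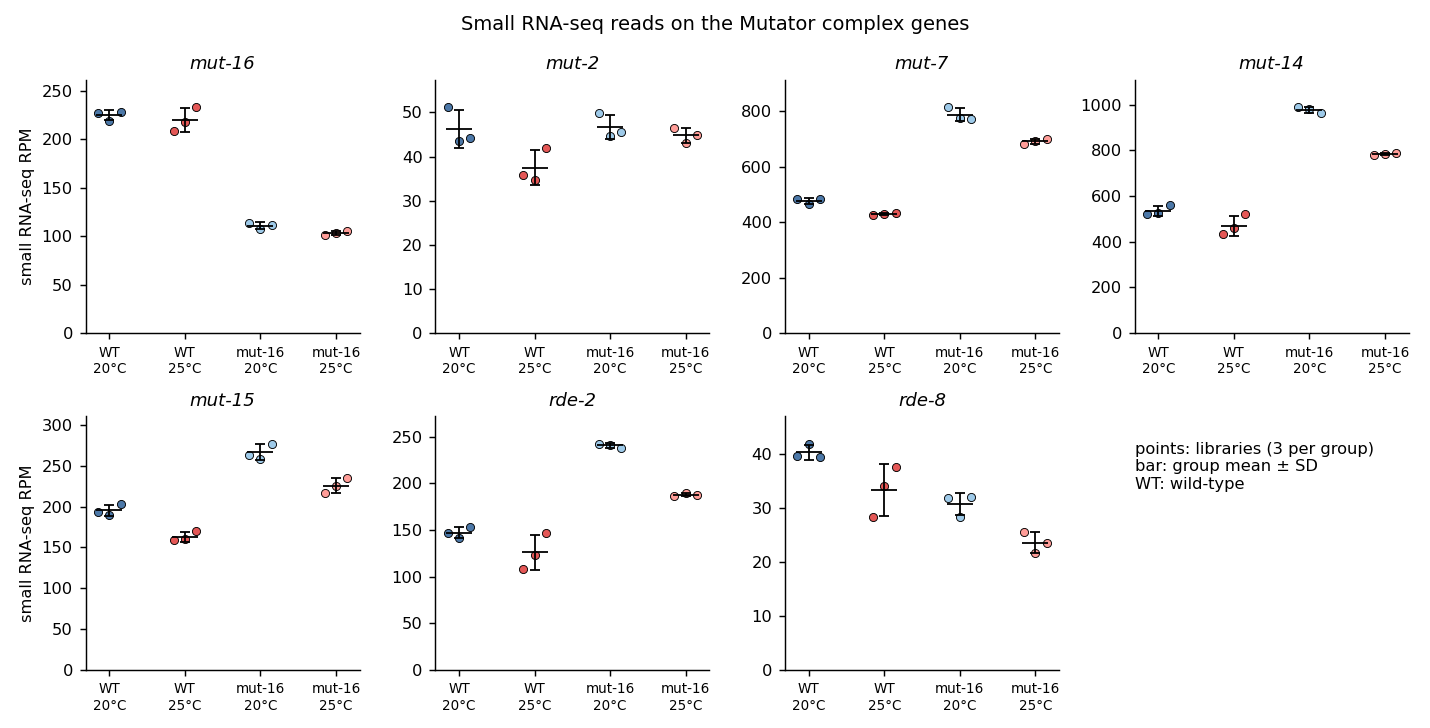
Small RNA-seq reads scaled to the library (RPM, vertical axes from 0) on each *Mutator* complex gene, with 1 point per library, 3 libraries per group, and bars for the group mean ± SD. *mut-7*, *mut-14*, *mut-15* and *rde-2* are higher and *mut-16* is lower in all *mut-16* mutant libraries than in all wild-type libraries.

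At 25°C the genotypes differed at all 7 genes in small RNA reads, with 5 higher (31.3% of all genes tested) and 2 lower (47.1% of all genes, and 78.4% in either direction). *mut-14* held 434, 459 and 519 RPM in wild-type and 779, 783 and 787 RPM in mutants, a log2 fold change of 0.81 (adjusted p = 5.84e-09, edgeR). *mut-7* was higher by 0.76, *rde-2* by 0.66, *mut-15* by 0.54 and *mut-2* by 0.33 (SE 0.0952, adjusted p = 0.00526). With at least 10 counts in every library *mut-2* had 0.014 (adjusted p = 0.882). *mut-16* was lower by 1.03, its log2 fold change being -1.03 (SE 0.061, adjusted p = 8e-10), with 208, 218 and 233 RPM in wild-type and 100.8, 103 and 105 in mutants. *rde-8* had -0.42 (SE 0.107, adjusted p = 0.00224), a call that DESeq2 did not give (-0.17, adjusted p = 0.176).

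Heat had less effect on these reads with TMM scaling. In wild-type 0 of the 7 genes were called by edgeR, with 2 at an unadjusted p under 0.05 and 1 called by DESeq2, while 37.2% of all genes tested were called. With the library total as the scale, all members but *mut-16* were called lower in wild-type, where 3677 of 16025 genes were. In *mut-16* mutants 3 genes were called lower, against 17.3% of all genes called lower and 25.6% in either direction. These were *mut-14* with -0.26 (adjusted p = 0.00302), *rde-2* with -0.30 (adjusted p = 0.00405) and *rde-8* with -0.33 (adjusted p = 0.0335). The *rde-8* call was lost with DESeq2 (-0.26, adjusted p = 0.0874) and held in 5 of 21 settings, the main one included, with adjusted p from 0.00845 to 0.137. With the library total as the scale, *mut-7* (-0.19) and *mut-15* (-0.24) were called lower in mutants as well, where 3406 of 16025 genes were. Without replicate 2 of *mut-16* mutants at 20°C 5 were called, and without replicate 2 of wild-type at either temperature 1 was. The wild-type result also depended on single libraries: 5 genes were called without wild-type replicate 3 at 25°C, 4 without wild-type replicate 1 at 25°C, 3 without replicate 1 or without replicate 2 of wild-type at 20°C, and 2 without replicate 3 there. It was 1 gene without wild-type replicate 2 at 25°C or without *mut-16* replicate 2 at 20°C. For the difference of the heat responses, 0 of 7 were called by edgeR and by DESeq2 and 0 had an unadjusted p under 0.05, with 18.3% of all genes called. 1 gene was called without wild-type replicate 1 or without replicate 3 at 25°C.

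Small RNA reads on germline and oocyte markers and on control genes rose in the same libraries. Other marker lists differed. From wild-type to mutants at 20°C, the mean sum went from 156 to 48.5 RPM for neuron markers. It went from 144 to 5.90 RPM for intestine markers and from 59.6 to 13.6 RPM for muscle markers. The sperm sum went from 135 to 73.0 RPM and the epidermis sum from 17.1 to 24.5 RPM. Of 7 control genes taken as steady, 7 were higher in mutants at 20°C (median log2 fold change 1.10) and 7 at 25°C (0.93), against medians of 0.87 and 0.72 for 25 germline markers. The sum over the 25 markers had a mean of 8210 RPM in wild-type and 12641 RPM in mutants at 20°C, where 25 of 25 markers were higher, and 7229 and 11340 RPM at 25°C, where 24 were. The shares of all genes tested that were called higher were 33.6% at 20°C and 31.3% at 25°C. The summed small RNA reads of the 6 genes other than *mut-16* were 0.176 of this sum in wild-type at 20°C and 0.174 after heat, 0.186 in mutants at 20°C and 0.173 in mutants at 25°C. The ratio, a measure chosen after the data were seen, differed between the genotypes by 0.08 on the log2 scale at 20°C (exact permutation test, two-sided, p = 0.1) and by -0.01 at 25°C. The sum rests mostly on *mut-14* and *mut-7*, and not every gene moved with it. Small RNA reads on *rde-8* were 0.492% of the germline sum in wild-type and 0.243% in mutants at 20°C, and 0.460% and 0.208% at 25°C. Those on *mut-2* were 0.565% and 0.370% at 20°C. For *mut-15* the values were 2.38% and 2.11% at 20°C, and 2.25% and 1.99% at 25°C. The means of *mut-14*, *mut-7* and *rde-2* were higher in mutants than in wild-type at 20°C.

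The near copy of *mut-14* went the other way. ZC317.1 held 53.2, 61.1 and 59.7 small RNA RPM in wild-type at 20°C and 1.84, 2.60 and 1.77 RPM in mutants at 20°C. At 25°C it held 30.8, 31.3 and 30.5 RPM in wild-type and 6.13, 6.37 and 7.25 RPM in mutants. The wild-type and mutant libraries were far apart at both temperatures, with log2 fold changes of -4.72 (SE 0.144, adjusted p = 2.94e-13, edgeR) and -2.17 (SE 0.129, adjusted p = 8.24e-10). Heat thus had opposite directions in the genotypes, -0.81 in wild-type (adjusted p = 5.68e-05) and 1.74 in mutants (adjusted p = 2.82e-06), and the difference between these responses was 2.55 (SE 0.195, adjusted p = 1.25e-06).

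The share of ZC317.1 in the small RNA reads of the pair was 9.76% and 6.15% in wild-type at 20°C and 25°C and 0.211% and 0.834% in mutants. Since the counting divides reads that match both transcripts, the values of the pair were also added up, an alternative chosen after the data were seen. With ZC317.1 counted as *mut-14*, the small RNA log2 fold change of *mut-14* between the genotypes was 0.82 at 20°C and 0.73 at 25°C, and heat in wild-type gave -0.15 (adjusted p = 0.0419). The mRNA level of ZC317.1 was 0.514 to 2.03 RPM, and it was not called in any mRNA comparison.

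**Figure D5:**
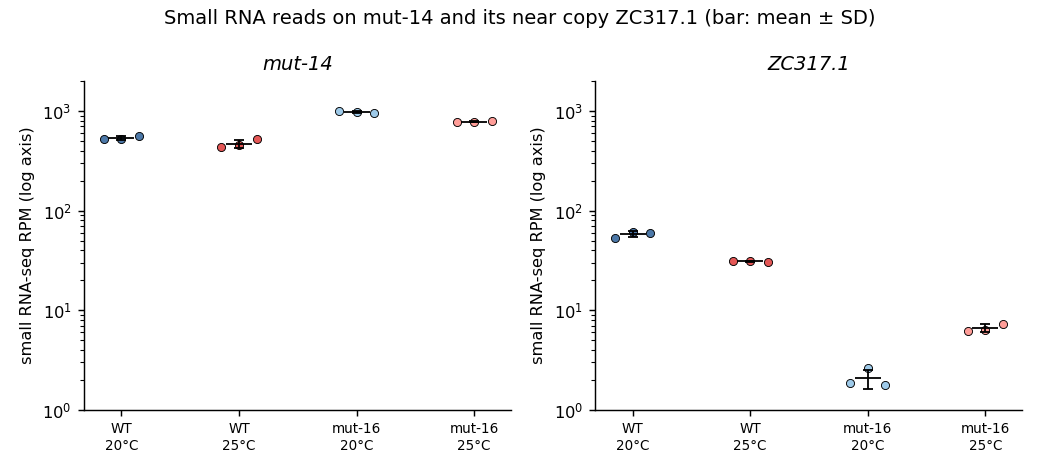
Small RNA-seq reads scaled to the library (RPM, logarithmic vertical axes) on *mut-14* (left) and on the pseudogene ZC317.1 (right), with 1 point per library, 3 libraries per group, and bars for the group mean ± SD. In *mut-16* mutants *mut-14* is higher and ZC317.1 lower than in wild-type, with 58.0 ± 4.22 RPM in wild-type and 2.07 ± 0.461 RPM in mutants at 20°C for ZC317.1.

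Other genes of the pathway were taken from 4 lists, of RdRP modules, of partners and paralogs in *Mutator* foci, of RNAi amplification and inheritance factors and of Argonautes. They hold 38 genes present in the files, of which 37 were tested for mRNA and 38 for small RNA. In mRNA-seq 4 were higher and 2 lower after heat in wild-type (22.6% of all genes tested were higher and 9.78% lower). In mutants at 20°C 6 were higher and 3 lower (25.9% and 11.2% of all genes). In the heated mutants 4 were higher and 24 lower than in mutants at 20°C (40.2% and 32.3% of all genes). The median log2 fold change was -0.42, and that of all genes 0.15. Against heated wild-type 4 were higher and 28 lower (41.1% and 32.6% of all genes), with a median of -0.50, all genes 0.16. For the difference of the heat responses 1 was higher, with 9.7% of all genes, and 18 were lower, with 21.4%. The lower calls lay in the libraries whose germline marker sums were the lowest, and the part of those markers in this result was not tested.

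Among the RdRP modules, which work beside the *Mutator* proteins, mRNA of *ego-1*, the RdRP of the germline, was lower in heated mutants than in heated wild-type by a log2 fold change of -0.74 (adjusted p = 0.011, edgeR). *rrf-3*, the RdRP that makes primary small RNAs, had -0.71 (adjusted p = 0.00715) and the helicase gene *drh-3* -0.71 (adjusted p = 0.00494). *ekl-1*, a Tudor domain partner of the RdRPs, had -0.47 (adjusted p = 0.000187) and *rrf-2* -0.35 (adjusted p = 0.0284). *rrf-1*, the RdRP best known from somatic RNAi, had -0.41 and was not called (adjusted p = 0.0557).

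Of the paralogs, *nyn-1*, which encodes an endonuclease that acts with RDE-8, fell by 0.68 on the log2 scale in heated mutants against mutants at 20°C (adjusted p = 2.59e-06). *smut-1*, a helicase gene that can act in place of *mut-14*, fell by 0.23 (adjusted p = 0.0167). *nyn-2*, the paralog of *nyn-1*, had -0.13 (adjusted p = 0.14) and was higher in mutants than in wild-type at 20°C (0.31, adjusted p = 0.00426). In heated mutants against mutants at 20°C, the nuclear Argonaute gene *hrde-1* had -0.96 and the helicase gene *rde-12* -1.04. Against heated wild-type, the Argonaute genes *wago-4*, *csr-1* and *ppw-2* had -0.90, -0.82 and -0.76. In contrast, *rde-11*, needed for RNAi amplification, was higher in mutants at 20°C by 0.86 (adjusted p = 4.58e-06). The Argonaute gene *wago-10* had mRNA means of 0.0180 RPM in wild-type and 0.570 RPM in mutants at 20°C, and 1 read in the 3 wild-type libraries together.

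Small RNA reads on these 38 genes were higher for 25 and lower for 8 in mutants at 20°C (median 0.47, all genes -0.45), and higher for 26 and lower for 6 at 25°C. Of all genes, 33.6% were higher and 46.8% lower at 20°C, and 31.3% and 47.1% at 25°C. They were higher on *wago-1* (log2 fold change 1.46, adjusted p = 2.3e-12, edgeR) and *nyn-1* (1.09) at 20°C. The largest falls at 20°C were on *eri-6*, a helicase gene of the pathway with *ergo-1*, from 3060 to 67.1 RPM (-5.42), and on *rrf-2*, from 168 to 4.91 RPM (-5.05, adjusted p = 3.58e-14). On *rrf-2* the mRNA was lower as well at 20°C, 8.01 RPM in wild-type and 4.00 RPM in mutants (-0.91, adjusted p = 0.000159). *smut-1* lost small RNA reads at 20°C (-0.99, adjusted p = 5.93e-08), where *mut-14* gained them, and had -0.08 at 25°C (adjusted p = 0.438).

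The genes lie close to others on the chromosomes. 5 of the 7 had a coding neighbour on the opposite strand whose start was within 1000 bases of their own, which held for 17.5% of 19982 coding genes. These were *mut-2* with K04F10.3 (173 bases between them), *rde-8* with ZC477.3 (230), *mut-15* with *fib-1*, the fibrillarin gene (319), *mut-14* with C14C11.2 (454) and *mut-7* with *eif-2Balpha*, a translation initiation factor subunit gene (738). All 5 neighbours had lower mRNA in heated mutants than in heated wild-type, as had 32.6% of all genes and 5 of the 7 control genes, with log2 fold changes of -0.65, -0.51, -0.67, -0.44 and -0.36 in the same order. The neighbours were not always alike in other comparisons, since *fib-1* mRNA was higher in mutants at 20°C (0.42, adjusted p = 0.00152), where *mut-15* had 0.05. *hex-2*, which ends 13 bases from the end of *mut-14* on the other strand, was higher in heated mutants (0.64, adjusted p = 1.27e-05). *mut-2* overlaps *bli-4* on the opposite strand by 67 bases, and the strand setting of the counting is not given in the sources used here.

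Across the 12 mRNA-seq libraries the 6 genes other than *mut-16* varied together, with Pearson r between 0.74 and 0.98 (median 0.89, 15 pairs, log2 scale). These libraries share genotype, temperature and scaling, and the r values are a description. The genes most like *mut-16* over the same libraries were T16H12.3 (r = 0.976), the pseudogene F02H6.1 (r = 0.974) and *lin-56* (r = 0.974). Most like the mean of the 6 others were C30F12.4 (r = 0.993), *zyg-1*, which encodes a kinase of centriole duplication (r = 0.991), and *flad-1* (r = 0.991). In small RNA reads the 6 genes were less uniform, with r from -0.66 to 0.99.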

How the data were processed

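mRNA-seq and small RNA-seq of wild-type and *mut-16* adults at 20°C and 25°C were used, 12 libraries per assay. The chromatin accessibility data were not analysed here. After trimming with Cutadapt, Salmon assigned the reads to transcripts of WS258, and the authors deposited its estimates summed by gene, which are expected counts with no normalization. HISAT2 is also listed in the submitters' notes, and versions and settings (strand, minimum read length) are not given in the sources used here. The files hold 46970 entries for 45904 gene names, and 1060 repeated names were added up. Salmon divides reads that match several transcripts.

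Counts were rounded and tested with edgeR 4.0.16 (R 4.3.3, filterByExpr, TMM, quasi-likelihood, Benjamini-Hochberg over all genes, adjusted p under 0.05), with one coefficient per group. The procedure was tested on simulated data. DESeq2 1.42.0, total counts as the scale, RLE factors, other filters, the replicate block, a fold change threshold, the RE mark of library titles as a covariate and leaving out each library were alternatives. Sequences and places are from the WBcel235 annotation, and local alignment used Biopython 1.88. Other calculations used Python 3.11.15, pandas 2.3.3 and scipy 1.17.1. The members and lists were chosen with earlier results of these data known. The text names all 7 members, the RdRP module genes, *smut-1*, the *nyn* genes and, of the other pathway genes past the threshold in a comparison, some of the 3 with the largest change in each direction. ZC317.1 and the neighbours lie outside this rule.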

Additional observations from a re-analysis of the deposited data

Results flagged for a closer look

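The heat response of 4 of the 7 mRNAs differed between the genotypes by the interaction test of edgeR with TMM scaling. Of all genes tested, 21.4% were called lower in this test and 31.1% in either direction. No member was called with the library total as the scale or with at least 10 counts in every library. The *mut-15* call held in 6 of 20 settings, and the *mut-14* call was lost without replicate 3 of mutants at 20°C. The difference between the log2 fold change in *mut-16* mutants and that in wild-type was -0.42 for *mut-2*, -0.58 for *mut-7*, -0.47 for *mut-14* and -0.33 for *mut-15*.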

How the results depend on the processing

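The counts of genes called in each comparison stayed within 1.5 times under DESeq2, no filter, RLE factors, the RE mark and fits restricted to the compared groups, with 1 exception: DESeq2 called 1 gene for heat in wild-type in small RNA-seq, where 0 were called. A minimum absolute log2 fold change of 1 left 0 (heat in wild-type), 0 (heat in mutants), 1 (genotypes at 20°C), 1 (genotypes at 25°C) and 0 (difference of the heat responses) in mRNA-seq, and 0 (heat in mutants), 0 (20°C) and 1 (25°C) in small RNA-seq. With total counts as the scale, 3 mRNAs were called for heat in mutants and 0 for the difference of the heat responses, and 6 and 5 genes for heat in wild-type and in mutants in small RNA-seq. A minimum of 10 counts in every library gave 0 for the mRNA difference of the heat responses and 1, 0 and 1 for small RNA heat in wild-type, heat in mutants and their difference. Counting ZC317.1 as *mut-14* gave 1 for small RNA heat in wild-type. The cause of these changes was not tested.

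Leaving out each library in turn gave mRNA counts of 1 to 1, 6 to 7, 2 to 3, 7 to 7 and 3 to 6 for heat in wild-type, heat in mutants, the genotypes at 20°C and at 25°C and the difference, and small RNA counts of 0 to 5, 1 to 5, 5 to 6, 7 to 7 and 0 to 1. The direction turned for *mut-15* mRNA in heated mutants with total counts (0.039) and for *mut-2* small RNA at 20°C with at least 10 counts in every library (-0.33). The ratio to the germline markers was -0.22 for heat in wild-type and -0.12 for the genotypes at 20°C without the most expressed marker, and with *mut-16* in the sum it was -0.29 at 20°C and 0.016 at 25°C.

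Deviations from the group means of libraries with the same number had correlations of -0.06 to 0.17 in mRNA-seq and -0.11 to 0.07 in small RNA-seq, so the numbers were not taken to pair samples. With the replicate block, the mRNA difference of the heat responses was -0.43 for *mut-16* (adjusted p = 0.037, edgeR) and -0.32 for *mut-15* (adjusted p = 0.0645), and small RNA heat in mutants was -0.33 for *rde-8* (adjusted p = 0.055). The lowest small RNA total, 4760502 reads, limits the precision of *rde-8* and *mut-2*, whose reads were the fewest.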
